A study of Mus musculus with 12 samples.

Results

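The Hox genes and the Meis, Pbx and T-box (Tbx) genes that work beside them were described in mouse embryonic fibroblasts that lack KSR1 and were made to express other proteins. Members were chosen by name alone: every probe set whose platform symbol was Hoxa, Hoxb, Hoxc or Hoxd with a number, or Tbx, Meis or Pbx with a number. A probe set is a group of short probes that reads 1 transcript. The rule found 53 of the 12422 probe sets on the array that were no controls, and these stood for 40 genes. Among them 38 probe sets read 31 Hox genes, 3 read 3 Meis genes, 4 read 2 Pbx genes and 8 read 4 Tbx genes. The mouse gene table lists 39 Hox genes, so not all were members. A further 3 probe sets carried several symbols, Hoxd4 with Hoxd3 or Hoxb8 with Hoxb7, and were left out.

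Hox genes encode homeodomain transcription factors that lie in clusters, and their order along a cluster mirrors where along the head-to-tail axis and the limb each is used. Fibroblasts keep much of this pattern in culture, so the set of Hox genes that is on is widely read as a record of the site a fibroblast came from. Meis and Pbx proteins, homeodomain proteins of the TALE class, bind DNA together with Hox proteins, and T-box factors pattern limbs, heart and mesoderm.

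All cells carried the KSR1 -/- genotype on a DBA background, so no cells with their own KSR1 were compared. KSR1 is a scaffold protein of the Raf-MEK-ERK cascade, and H-RasV12 is a constitutively active form of H-Ras. There were 4 lines, each with 3 arrays: GFP alone, H-RasV12 with GFP, KSR1 with GFP, and KSR1 with H-RasV12 and GFP, the last called the KSR1+H-RasV12 line. The labels name neither the number of clones nor the number of cultures behind a line, nor the embryonic site or age of the fibroblasts. Replicate arrays may therefore be technical, and the p-values below measure only the spread between these arrays. Where a change came with making a line and where with the protein expressed cannot be told apart.

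The signals had been scaled to a common level on every array (trimmed mean 500.3), and array medians ran from 161 to 216. A Ksr1 probe set (92765_s_at) ran from 207 to 1605 in the KSR1 line and from 141 to 301 in the KSR1+H-RasV12 line, against 14.2 to 144 in the other lines, KSR1+H-RasV12 replicate 3 (141) lying below GFP replicate 1 (144). In the second (92764_at) both KSR1 lines overlapped the GFP line. Of 12 fibroblast markers, 9 were expressed in the GFP line, 10 in H-RasV12, 8 in KSR1 and 7 in KSR1+H-RasV12, and their summed signal was 49934 to 65501, 51022 to 71015, 40236 to 40625 and 21516 to 33296 in that order. Of 4 mesothelial markers, 0 were expressed in the GFP and H-RasV12 lines and 2 in each KSR1 line (Msln and Krt19), with sums of 258 to 328 in the former and 1407 to 2779 in the latter. Wt1 and Upk3b, also on that list, were expressed in no line. Of 7 epithelial markers, Cdh1 was expressed in every line and Krt19 in both KSR1 lines. Neural markers were expressed at 2 of 6 in every line and muscle markers at 2, 1, 1 and 1 of 5, and none of endothelium, leukocytes or pluripotent cells in any line. The part of these shifts in the results below was not tested. In such bulk RNA, fewer cells that express a gene and less RNA per cell cannot be told apart.

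A probe set was called expressed in a line when its signal exceeded 182, the median of all signals, on all 3 arrays, not expressed when it exceeded it on none, and mixed otherwise. This is a level relative to the array as a whole, not proof of presence or absence. The muscle marker Myod1 (186 to 370) and the neural marker Sox10 (241 to 447) counted as expressed in every line. The fibroblast marker Vim (29.6 to 128) counted as expressed in none. By this measure 19 of the 53 members were expressed in the GFP line, 18 in H-RasV12, 15 in KSR1 and 11 in KSR1+H-RasV12. These are 35.9%, 34.0%, 28.3% and 20.8% of members, beside 45.5%, 46.5%, 46.0% and 43.5% of all probe sets. Counted by gene, 13, 12, 10 and 7 Hox genes had an expressed probe set in the GFP, H-RasV12, KSR1 and KSR1+H-RasV12 lines.

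**Figure D1:**
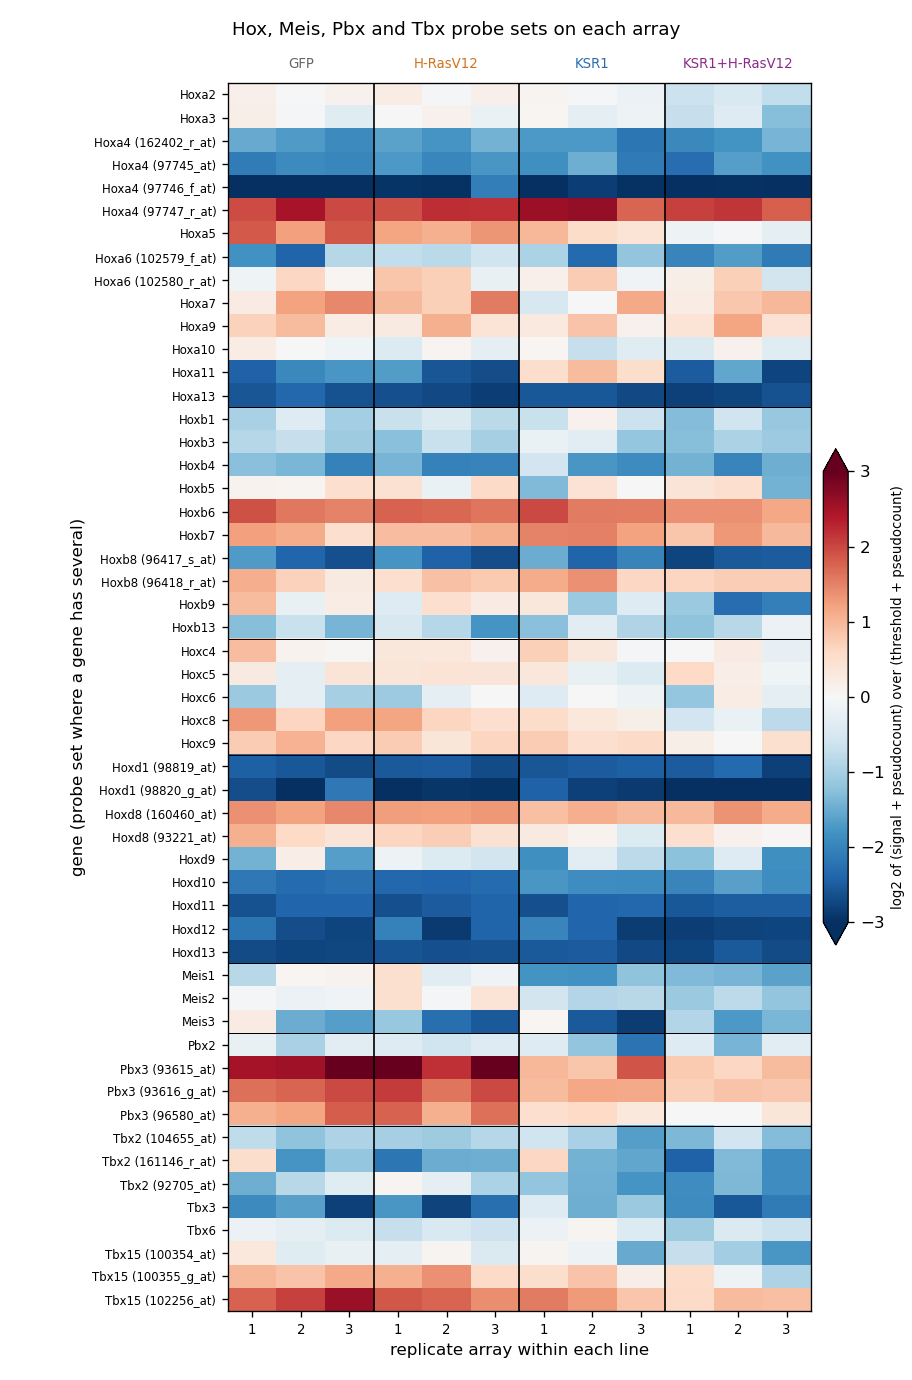
Signal of each of the 53 member probe sets (vertical axis) on each of the 12 arrays (horizontal axis, 3 per line), as log2 of signal plus 23 over the threshold of 182 plus 23; red is above and blue below the threshold, and the scale stops at 3 on either side. Hoxb6, Hoxb7, Hoxa9 and one Hoxd8 probe set are red throughout, Hoxd10 to Hoxd13 are blue throughout, and Hoxa11 is red in the KSR1 line only.

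A common core of Hox genes lay above the threshold in every line. Hoxa9, Hoxb6, Hoxb7 and Hoxd8 were expressed in all 4 lines. These 4 genes belong to paralogue groups 6 to 9, which are used at thoracic and forelimb levels. Hoxa4 and Hoxb8 were expressed in all lines too, but each by 1 probe set of the _r type alone, for which Affymetrix relaxed a probe selection rule, while their other probe sets read far below the threshold. Another 9 Hox genes were expressed by no probe set in any line: Hoxa13, Hoxb3, Hoxb4, Hoxb13, Hoxd1, Hoxd10, Hoxd11, Hoxd12 and Hoxd13. Hoxd10 to Hoxd13, the genes of the far limb and the tail end, ran only from 5.07 to 43.8 over all arrays, and Hoxa13, used in digits and the genital region, from 5.95 to 17.3. Between these sets, 9 Hox genes were expressed in some lines but not all (Hoxa2, Hoxa5, Hoxa7, Hoxa11, Hoxb5, Hoxc4, Hoxc5, Hoxc8 and Hoxc9), and 7 were mixed at most (Hoxa3, Hoxa6, Hoxa10, Hoxb1, Hoxb9, Hoxc6 and Hoxd9). The size of the core depended on the threshold. Member probe sets expressed in all lines numbered 9 at 182, 19 at 100 and 2 at 364, double the median. Asking for 2 of 3 arrays above 182 gave 13. Of Hoxa9, Hoxb6, Hoxb7 and Hoxd8, only Hoxb6 (lowest signal 432.5) stayed above 364 on all arrays. The lowest signals were 201.9 for Hoxa9, 267 for Hoxb7 and 357.6 for the Hoxd8 probe set 160460_at.

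At the threshold of 182 the lines therefore shared a core of expressed genes and a set of low ones, and differed in some of the genes between. Over the 53 members, 29 (54.7%) had the same status in all 4 lines, beside 78.9% of all probe sets. Of the members, 23 were mixed in at least 1 line, with replicate arrays on both sides of the threshold. Only 4 members (7.55%, beside 4.14% of all probe sets) were expressed in at least 1 line and not expressed in at least 1 other: Hoxa2, Hoxa5, Hoxa11 and Hoxc8. Hoxa2, Hoxa5 and Hoxc8 were above the threshold on every GFP array and below it on every KSR1+H-RasV12 array, and Hoxa11 was above it on the KSR1 arrays alone.

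The HoxA cluster held members of contrasting pattern. Bases upstream of 4 of its genes are shown because they stand for 4 patterns seen side by side in 1 cluster: Hoxa5 was lower in each KSR1 line, Hoxa9 was expressed in every line, Hoxa11 was expressed in 1 line, and Hoxa13 was expressed in none. Each sequence is the 250 bases before the annotated start, read 5′ to 3′ on the gene's strand from RefSeq on GRCm38.p6, with CpG dinucleotides in capitals.

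Hoxa5 promoter, chr6:52204588-52204837, minus strand: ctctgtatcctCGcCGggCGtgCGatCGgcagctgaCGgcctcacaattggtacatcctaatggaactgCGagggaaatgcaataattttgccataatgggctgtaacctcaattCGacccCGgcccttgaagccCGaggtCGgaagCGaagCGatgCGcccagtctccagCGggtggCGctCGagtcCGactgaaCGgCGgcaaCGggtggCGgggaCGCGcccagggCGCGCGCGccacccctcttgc

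Hoxa9 promoter, chr6:52227371-52227620, minus strand: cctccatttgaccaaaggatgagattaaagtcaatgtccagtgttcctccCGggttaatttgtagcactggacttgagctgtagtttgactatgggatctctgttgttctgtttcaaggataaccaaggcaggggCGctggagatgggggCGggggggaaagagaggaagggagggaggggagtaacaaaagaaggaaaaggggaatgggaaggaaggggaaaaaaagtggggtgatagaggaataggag

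Hoxa11 promoter, chr6:52245811-52246060, minus strand: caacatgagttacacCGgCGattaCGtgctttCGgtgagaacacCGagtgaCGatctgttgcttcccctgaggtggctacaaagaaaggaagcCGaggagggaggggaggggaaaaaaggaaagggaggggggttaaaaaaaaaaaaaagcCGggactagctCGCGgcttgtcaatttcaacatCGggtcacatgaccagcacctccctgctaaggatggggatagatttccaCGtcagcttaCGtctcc

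Hoxa13 promoter, chr6:52260881-52261130, minus strand: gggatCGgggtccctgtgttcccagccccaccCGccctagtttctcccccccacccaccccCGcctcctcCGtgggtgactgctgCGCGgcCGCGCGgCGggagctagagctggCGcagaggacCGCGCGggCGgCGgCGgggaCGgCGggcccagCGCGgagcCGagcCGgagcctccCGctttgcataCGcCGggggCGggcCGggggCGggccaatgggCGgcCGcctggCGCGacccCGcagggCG

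The Hoxa5 window held 28 CpGs (63.6% G or C), Hoxa9 3 (49.6%), Hoxa11 13 (52.0%) and Hoxa13 35 (80.0%), beside medians of 6 CpGs and 52.4% over 32851 promoters of this length. Promoters were listed for 25 of the 40 member genes, 27 windows in all. On either strand a Pbx-Hox site (TGATNNAT) was found in 5 of these 27, against 7.68% of all promoters, in Hoxa2, Hoxb1, Hoxb8, Hoxd11 and Tbx6. A Meis site (TGACAG) was found in 2, Hoxa2 and Hoxa3, against 15.9%, and a T-box site (AGGTGTGA) in 1, Hoxd9, against 1.12%. In Hoxa2, which held both of the first pair, the matches lay at -111 and -44 from the start and did not overlap. None of the 3 motifs lay in the windows shown, and a match describes the letters only.

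Hoxa11, which patterns the forearm and the uterus, was the one member above the threshold in the KSR1 line alone. Its signals were 273, 373 and 274 on the KSR1 arrays. They were 15.1, 31.0 and 37.7 on the GFP arrays, 41.3, 11.8 and 9.5 on the H-RasV12 arrays and 13.2, 46.6 and 7.17 on the KSR1+H-RasV12 arrays. Every KSR1 array thus lay above every other array, and the other 3 lines overlapped each other far below the threshold. On the log2(signal + 23) scale used for all tests, which understates changes of low signals, Hoxa11 rose by 2.71 ± 0.49 (SE, adjusted p = 0.0019) in KSR1 over GFP and was -2.95 ± 0.49 (SE, adjusted p = 0.000832) in KSR1+H-RasV12 against KSR1. The group means were 307 ± 57.1 in the KSR1 line and 27.9 ± 11.6 in the GFP line (SD, n = 3), 11.0 times apart. Hoxa11 passed the filter for testing through its 3 KSR1 arrays only, so within the tested set it had to differ. Fitted over all 12422 probe sets without a filter, it was called as well. With each KSR1 array left out in turn and no filter, its rise over GFP ran from 2.57 to 2.78 (adjusted p 0.00169 to 0.00352). Msln, a mesothelial marker, moved with it into the KSR1 line (1021 to 1924, against 9.17 to 27.1 in GFP) but was also expressed in the KSR1+H-RasV12 line (296 to 569), where Hoxa11 was not.

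Neither neighbour of Hoxa11 was called in KSR1 against GFP, with or without the filter. Hoxa10, which specifies lumbar and uterine identity, ran from 105 to 216 over all arrays and was -0.36 ± 0.28 (SE, adjusted p = 0.476) in KSR1 against GFP. Hoxa13 stayed at 5.95 to 17.3. Hoxa9, a factor of blood stem cells and of the trunk, was 309, 374 and 215 in GFP, 224, 406 and 251 in H-RasV12, 227, 346 and 202 in KSR1 and 249.7, 445 and 252 in KSR1+H-RasV12. All 4 lines overlapped, and its log2 difference between KSR1 and GFP was -0.20 ± 0.30 (SE, adjusted p = 0.745).

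Hoxa5, which shapes the neck-to-thorax transition and the lung, was lower in each KSR1 line. Its signals were 710.4, 458 and 724 in GFP and 445, 409.8 and 491 in H-RasV12, 386, 278 and 250.1 in KSR1 and 160.0, 176 and 143 in KSR1+H-RasV12. The GFP and H-RasV12 arrays overlapped, the KSR1 arrays all lay below both, and the KSR1+H-RasV12 arrays lay below all others. The difference was -0.99 ± 0.22 (SE, adjusted p = 0.00881) for KSR1 against GFP, -0.82 ± 0.22 (SE, adjusted p = 0.0217) for KSR1+H-RasV12 against KSR1, -1.37 ± 0.22 (SE, adjusted p = 0.000644) against H-RasV12 and -1.81 ± 0.22 (SE, adjusted p = 5.82e-05) against GFP. The first of these missed the threshold without GFP replicate 3 (adjusted p = 0.0566, over all alternatives 0.00301 to 0.0566) and the second missed it in 4 alternatives, among them without KSR1 replicate 1 (adjusted p = 0.0991, over all alternatives 0.0151 to 0.132) and without KSR1+H-RasV12 replicate 3. The other comparisons kept it throughout.

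Hoxa2, which specifies the second branchial arch, was 206, 184 and 201 in GFP and 216, 175 and 206 in H-RasV12. It was 195, 176 and 157 in KSR1 and 108, 126 and 100.1 in KSR1+H-RasV12, so that the last line lay below the others while those overlapped at the threshold. Its difference of -0.71 ± 0.23 (SE, adjusted p = 0.0457) against GFP and -0.72 ± 0.23 (SE, adjusted p = 0.0445) against H-RasV12 was close to the limit of the test, and 17 of 21 alternatives lost each call, among them leaving out any 1 of the 12 arrays (adjusted p 0.0106 to 0.165 and 0.00996 to 0.176). Hoxa3 ran from 61.7 to 210.2, Hoxa7 from 123 to 580.5, and neither was called in any comparison. Hoxa4 was read by 4 probe sets that disagreed: 97747_r_at ran from 663 to 1259 and the other 3 from 1.93 to 55.4. Hoxa6 did likewise, with 102580_r_at at 116 to 342 and 102579_f_at at 16.0 to 112, so neither gene's status is settled by this array.

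In the HoxB cluster the middle genes were expressed throughout. Hoxb6 ran from 432 to 786 and Hoxb7 from 267 to 566 over all 12 arrays, always above the threshold. Hoxb6 was 0.03 ± 0.18 (SE, adjusted p = 0.952) in KSR1 against GFP and -0.36 ± 0.18 (SE, adjusted p = 0.231) in KSR1+H-RasV12 against GFP, and the same comparisons of Hoxb7 gave 0.46 ± 0.21 (SE, adjusted p = 0.198) and 0.09 ± 0.21 (SE, adjusted p = 0.851). Hoxb8 was above the threshold by 96418_r_at (224 to 504) and far below it by 96417_s_at (7.46 to 50.6). Hoxb5 ran from 54.2 to 280.2 and was expressed in the GFP line only by the all-arrays rule, with mixed arrays elsewhere. Hoxb1, of the hindbrain, exceeded the threshold on 1 array (59.8 to 201).

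Hoxb9, a thoracic gene that also acts in the mammary gland, was the HoxB member that fell. Its signals were 373, 153 and 217 in GFP, 133, 269.6 and 219 in H-RasV12, 235, 71.5 and 134 in KSR1 and 72.2, 19.4 and 26.4 in KSR1+H-RasV12. The GFP, H-RasV12 and KSR1 lines overlapped broadly. In KSR1+H-RasV12, replicate 1 reached the lowest KSR1 array and the remaining arrays lay below every array of the other lines. It was -2.13 ± 0.44 (SE, adjusted p = 0.00407) against GFP, -1.93 ± 0.44 (SE, adjusted p = 0.00791) against H-RasV12 and -1.42 ± 0.44 (SE, adjusted p = 0.044) against KSR1. The last call was lost in 12 alternatives, among them without GFP replicate 3, H-RasV12 replicate 2 or 3, KSR1 replicate 1 or 3, or KSR1+H-RasV12 replicate 2 or 3 (adjusted p over all alternatives 0.0179 to 0.183). That call was also lost with no filter (adjusted p = 0.0785), under quantile normalization (0.0771) and under median centring (0.0606).

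Hoxc8 was the HoxC member that passed the test. This gene, a marker of the thoracic trunk, had signals of 485, 298 and 456 in GFP, 444, 299 and 269 in H-RasV12, 276, 234 and 207 in KSR1 and 116, 155 and 96.6 in KSR1+H-RasV12. The KSR1+H-RasV12 arrays lay below all others, and the KSR1 arrays overlapped the H-RasV12 arrays at their upper end. The difference was -1.57 ± 0.26 (SE, adjusted p = 0.000644) against GFP and -1.30 ± 0.26 (SE, adjusted p = 0.00306) against H-RasV12. Against KSR1 it was -0.86 ± 0.26 (SE, adjusted p = 0.0377), which 13 alternatives lost, among them without GFP replicate 3, H-RasV12 replicate 2, any 1 KSR1 array, or KSR1+H-RasV12 replicate 1 or 3 (adjusted p 0.0236 to 0.134). That call was also lost with no filter (adjusted p = 0.0718), under quantile normalization (0.0555) and under median centring (0.0647). KSR1 against GFP gave -0.72 ± 0.26 (SE, adjusted p = 0.0937), which was called under quantile normalization (adjusted p = 0.0403) and median centring (0.041). Hoxc9, the next gene of the cluster, read 323, 401 and 291 in GFP and 208, 179 and 262 in KSR1+H-RasV12, a difference of -0.60 ± 0.21 (SE, adjusted p = 0.0756). Hoxc4 (149.5 to 368) and Hoxc5 (131 to 286) stayed around the threshold in all lines. Hoxc6 (68.3 to 215) exceeded it on 1 array only, KSR1+H-RasV12 replicate 2, and did not pass the filter.

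In the HoxD cluster, both Hoxd8 probe sets read signal in every line, 160460_at from 358 to 534 and 93221_at from 131 to 406, the latter below the threshold on 1 array, KSR1 replicate 3. Their differences in KSR1 against GFP were -0.36 ± 0.17 (SE, adjusted p = 0.214) and -0.70 ± 0.25 (SE, adjusted p = 0.0883). With the replicate number as a block the latter was called (adjusted p = 0.0301), as it was under quantile normalization (0.0294) and median centring (0.0353). Hoxd9 ran from 33.9 to 212, above the threshold on 1 array. Hoxd1, at the opposite end of the cluster, ran from 0.358 to 23.2 by its 2 probe sets. Hoxd10, though far below the threshold throughout, had means of 20.6 ± 2.67 in GFP, 17.3 ± 0.791 in H-RasV12, 34.5 ± 2.81 in KSR1 and 35.5 ± 7.52 in KSR1+H-RasV12 (SD, n = 3), and was called in no comparison of the fit without a filter.

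**Figure D2:**
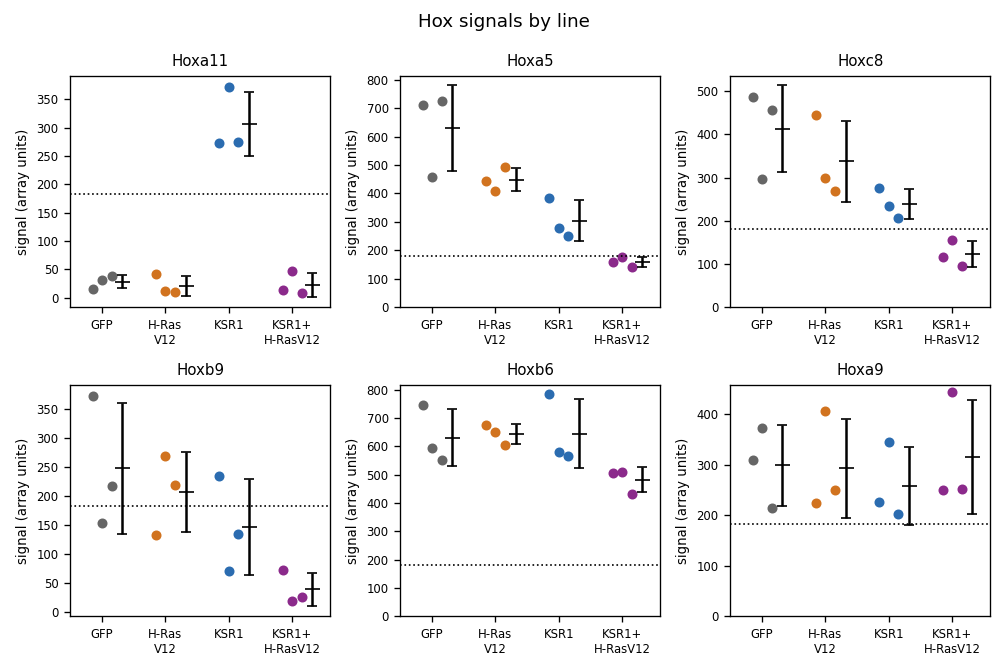
Signal in array units of 6 Hox genes by line; dots are the 3 replicate arrays, the bar beside them is the mean ± SD, and the dotted line is the threshold of 182. Hoxa11 clears the threshold in the KSR1 line only, Hoxa5 and Hoxc8 drop below it in the KSR1+H-RasV12 line, and Hoxb6 and Hoxa9 stay above it on all arrays.

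Pbx3, Meis1 and Meis2, TALE partners of the Hox proteins, had lower signals on every array of the lines with KSR1 than on any array without it. Pbx3, which raises the DNA affinity of Hox proteins, was read by 3 probe sets. The first, 93615_at, gave 1141, 1173 and 2568 in GFP, 1665, 907 and 2114 in H-RasV12, 385, 339.9 and 736 in KSR1 and 329, 291 and 372 in KSR1+H-RasV12. This separation held for each probe set, and both KSR1 lines remained near or above the threshold. In 93616_g_at, which shares probes with its neighbour 93615_at, the means were 691 ± 87.4, 746 ± 127, 414 ± 34.8 and 331 ± 17.8 in the same order (SD, n = 3), and in 96580_at they were 515 ± 159.9, 568 ± 143, 262 ± 29.8 and 200.1 ± 35.5.

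All Pbx3 probe sets passed the test in the same comparisons. Against GFP, KSR1 gave -1.67 ± 0.36 (SE, adjusted p = 0.00702), -0.70 ± 0.18 (SE, adjusted p = 0.019) and -0.88 ± 0.25 (SE, adjusted p = 0.0308) in the order above. The latter pair lost the call without GFP replicate 3, without KSR1 replicate 1 and, for 96580_at, without KSR1 replicate 2 or 3 as well (adjusted p 0.0166 to 0.104 and 0.0198 to 0.171 over all alternatives), whereas 93615_at kept it throughout. With no filter 96580_at lost it too (adjusted p = 0.0585), as did 93616_g_at without replicate 1 of every group (0.0652). Against H-RasV12, KSR1+H-RasV12 gave -2.09 ± 0.36 (SE, adjusted p = 0.00102), -1.10 ± 0.18 (SE, adjusted p = 0.000648) and -1.39 ± 0.25 (SE, adjusted p = 0.00132), and against GFP -2.12 ± 0.36 (SE, adjusted p = 0.000824) in the first and -1.24 ± 0.25 (SE, adjusted p = 0.00283) in the third (adjusted p = 0.00127 in the second), all called under every alternative. Pbx2, the other Pbx member, was under the threshold on all arrays (21.1 to 154).

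Meis1, the TALE partner known for its action with Hoxa9 in blood, separated the lines in the same way. It read 92.2, 191 and 198 in GFP, 262, 143 and 168 in H-RasV12, 36.1, 35.3 and 65.9 in KSR1 and 59.1, 55.6 and 44.6 in KSR1+H-RasV12. All arrays with KSR1 lay below all arrays without it, though only 3 of the latter exceeded the threshold, so the gene passed the filter on those arrays alone. The filter thus favoured a lower signal with KSR1 among tested genes. Meis1 was -1.38 ± 0.37 (SE, adjusted p = 0.0247) in KSR1 against GFP, -1.46 ± 0.37 (SE, adjusted p = 0.0148) in KSR1+H-RasV12 against H-RasV12 and -1.21 ± 0.37 (SE, adjusted p = 0.0384) against GFP. Fitted without a filter it was called in each as well (adjusted p 0.0261, 0.0159 and 0.0402). These calls were lost in 3, 1 and 8 alternatives, the first without KSR1 replicate 1 or 2, the second without KSR1+H-RasV12 replicate 3, and the third without any 1 KSR1+H-RasV12 array or H-RasV12 replicate 2 or 3 (adjusted p 0.00647 to 0.0946, 0.00343 to 0.0549 and 0.011 to 0.112). Quantile normalization (adjusted p = 0.0868) and median centring (0.0757) lost the third as well.

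Meis2, which marks the proximal limb, did not pass the filter, with 2 arrays above the threshold. It read 173, 157 and 166 in GFP, 265, 172 and 249 in H-RasV12, 116, 88.6 and 91.5 in KSR1 and 72.4, 96.4 and 67.9 in KSR1+H-RasV12, and again no array with KSR1 reached an array without it. In the fit without a filter it was -1.30 ± 0.25 (SE, adjusted p = 0.00591) in KSR1+H-RasV12 against H-RasV12 and -0.90 ± 0.25 (SE, adjusted p = 0.0455) against GFP. KSR1 against GFP was not called there, at -0.64 ± 0.25 (SE, adjusted p = 0.199). Meis3 varied more within lines than between them, from 5.46 to 221, with the highest value of each of the 4 lines on replicate 1.

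Among the T-box members, Tbx15, a factor of the limb and head skeleton and of fat cells, was expressed in every line by 102256_at. That probe set gave 681, 828 and 1217 in GFP, 726, 668 and 519 in H-RasV12, 581, 477 and 342 in KSR1 and 282, 371 and 357 in KSR1+H-RasV12. KSR1 lay below GFP on all arrays and overlapped H-RasV12 and KSR1+H-RasV12. The differences were -0.92 ± 0.24 (SE, adjusted p = 0.0242) for KSR1 against GFP, -0.87 ± 0.24 (SE, adjusted p = 0.0257) for KSR1+H-RasV12 against H-RasV12 and -1.34 ± 0.24 (SE, adjusted p = 0.00146) against GFP. The first was lost without GFP replicate 2 or 3 or KSR1 replicate 2 or 3 (adjusted p 0.00842 to 0.137), the second without H-RasV12 replicate 1 or 2, KSR1+H-RasV12 replicate 1 or replicate 1 of every group (adjusted p 0.0185 to 0.124), and the third held throughout.

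The other Tbx15 probe sets differed in level and in call. 100355_g_at gave -1.17 ± 0.33 (SE, adjusted p = 0.0258) against H-RasV12 and -1.16 ± 0.33 (SE, adjusted p = 0.0259) against GFP for the KSR1+H-RasV12 line, and -0.47 ± 0.33 (SE, adjusted p = 0.427) for KSR1 against GFP. Its calls were lost in 6 and 7 alternatives, the former without H-RasV12 replicate 1 or 2, the latter without any 1 GFP array, and both without KSR1+H-RasV12 replicate 2 or 3 (adjusted p 0.00346 to 0.115 and 0.0035 to 0.114). Both were also lost with no filter (adjusted p = 0.0551 in each). 100354_at, with signals of 38.3 to 234, was called in no comparison, but with the replicate number as a block it passed for KSR1+H-RasV12 against GFP (adjusted p = 0.0394). Tbx2, Tbx3 and Tbx6 were low or uneven. Tbx2 ran from 15.2 to 293 over 3 probe sets that disagreed, and 92705_at alone passed the fit without a filter, at -1.32 ± 0.36 (SE, adjusted p = 0.0402) in KSR1+H-RasV12 against H-RasV12. Tbx3 ran from 6.42 to 134 with its highest values in the KSR1 line (134, 51.1 and 71.0), and Tbx6, of the presomitic mesoderm, from 74.2 to 195.

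**Figure D3:**
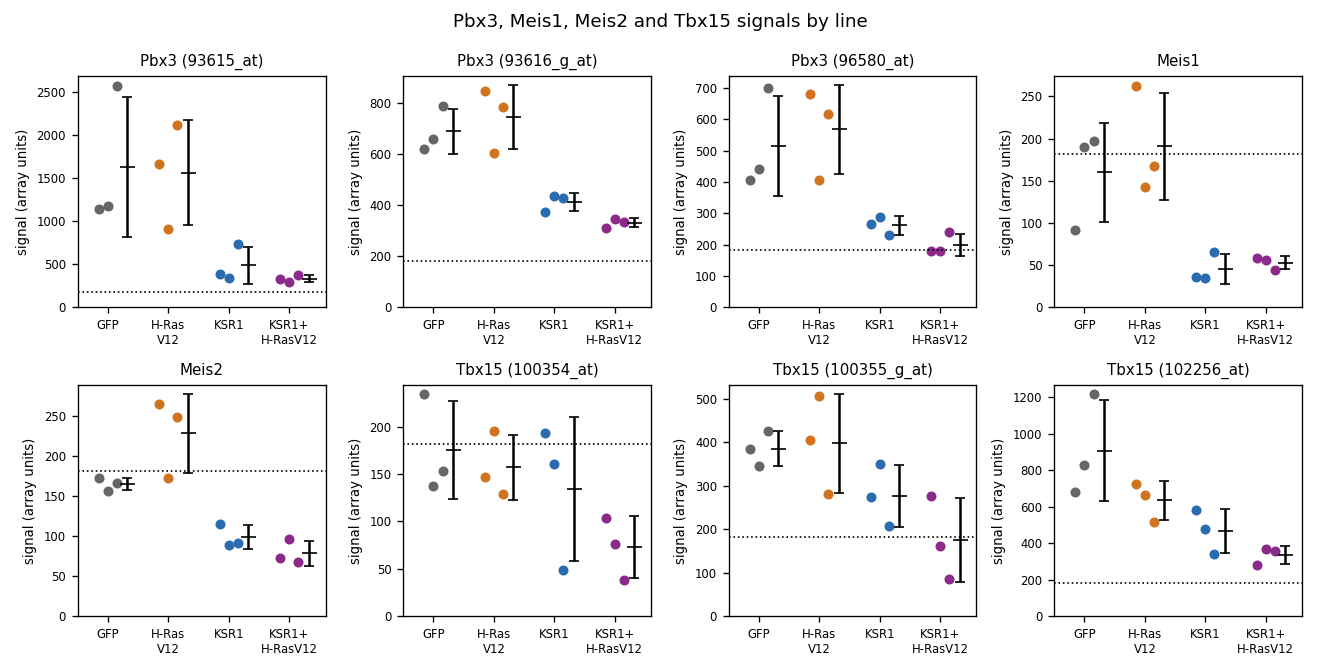
Signal in array units of the Pbx3, Meis1, Meis2 and Tbx15 probe sets by line; dots are the 3 replicate arrays, the bar beside them is the mean ± SD, and the dotted line is the threshold of 182. For Pbx3, Meis1 and Meis2 every array of the KSR1 and KSR1+H-RasV12 lines lies below every array of the GFP and H-RasV12 lines.

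The same members were then counted over the whole fit, in which 6891 probe sets above 182 on at least 3 arrays were tested and 27 of the 53 members passed. A call is a limma adjusted p under 0.05 over all 6891. For H-RasV12 against GFP, 0 of the 27 members were called, where 0% of all tested probe sets were higher and 0.0726% lower, and 0 members had an unadjusted p under 0.05. Without the filter 0 of 53 were called and 1, a Hoxa6 probe set, had an unadjusted p under 0.05. Over all probe sets, 411 of 6891 had such a p with the filter and 644 of 12422 without it. The median member difference was -0.02. In the absence of KSR1, no change of a tested member was detected with H-RasV12, in a comparison that called only 5 of 6891 probe sets. The count of 0 therefore says little about the members in particular.

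For KSR1 against GFP, 1 member was higher and 6 were lower, where 4.98% of all tested probe sets were higher and 6.82% lower. They stood for 5 genes: Hoxa11 rose, and Hoxa5, Meis1, Pbx3 and Tbx15 fell. The median difference was -0.36 over the 27 members and 0.04 over all probe sets tested. Fitted over all 53 members without a filter, 1 was higher and 5 lower, beside 2.72% and 3.36% of all. Without GFP replicate 3, 2 of these calls were left, Hoxa11 and 93615_at of Pbx3, while Meis1 passed the filter on too few arrays. Without KSR1 replicate 1, 2 or 3 there were 3, 3 and 4 calls, Hoxa11 then being untested. Without replicate 1 of every group there were 4, with Hoxa11 and Meis1 untested. The lines with KSR1 also differed from GFP in mesothelial markers (2 of 4 expressed against 0), whose part in these counts was not tested.

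For KSR1+H-RasV12 against KSR1, 0 members were higher and 4 lower, where 8.17% of all tested probe sets were higher and 6.92% lower. The 4 were Hoxa5, Hoxa11, Hoxb9 and Hoxc8, and at an unadjusted p under 0.05 the counts were 0 higher and 6 lower. Over all tested probe sets, 1888 of 6891 had such a p in either direction. Without a filter 2 of 53 were lower, beside 3.50% of all, so this share was near the background. Leaving out KSR1 replicate 1, 2 or 3 gave 0, 2 and 1 calls, in part because Hoxa11 then passed the filter on too few arrays. Without GFP replicate 3 or H-RasV12 replicate 2 there were 2, and without KSR1+H-RasV12 replicate 3 or without replicate 1 of every group 1. In the last of these Hoxa11 was again untested. Median centring moved the median of all probe sets in this comparison by 0.17, from -0.07 to 0.09, and the split of all calls from 563 higher and 477 lower to 701 and 308. The member median was then -0.20 in place of -0.36. The interaction was shifted likewise, by 0.18, with its split going from 287 higher and 246 lower to 355 and 161.

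For KSR1+H-RasV12 against H-RasV12, 0 members were higher and 10 lower, where 7.11% of all tested probe sets were higher and 7.72% lower. Against GFP the count was also 0 and 10, where 7.72% were higher and 7.94% lower. In both comparisons the 10 probe sets stood for the same 7 genes, Hoxa2, Hoxa5, Hoxb9, Hoxc8, Meis1, Pbx3 and Tbx15, but the comparisons share the KSR1+H-RasV12 arrays. At an unadjusted p under 0.05 both counted 0 higher and 13 lower. Over all 6891 tested probe sets, 1838 and 1851 had such a p in either direction. Without a filter 10 and 9 of 53 members were lower, beside 3.94% and 4.31% of all. Without H-RasV12 replicate 1 the former comparison had 6 calls. Median differences of the tested members were -0.41 and -0.47, and those of all probe sets -0.05 and -0.02. The summed fibroblast markers were lowest in the same line (21516 to 33296), and their part in these counts was not tested.

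**Figure D4:**
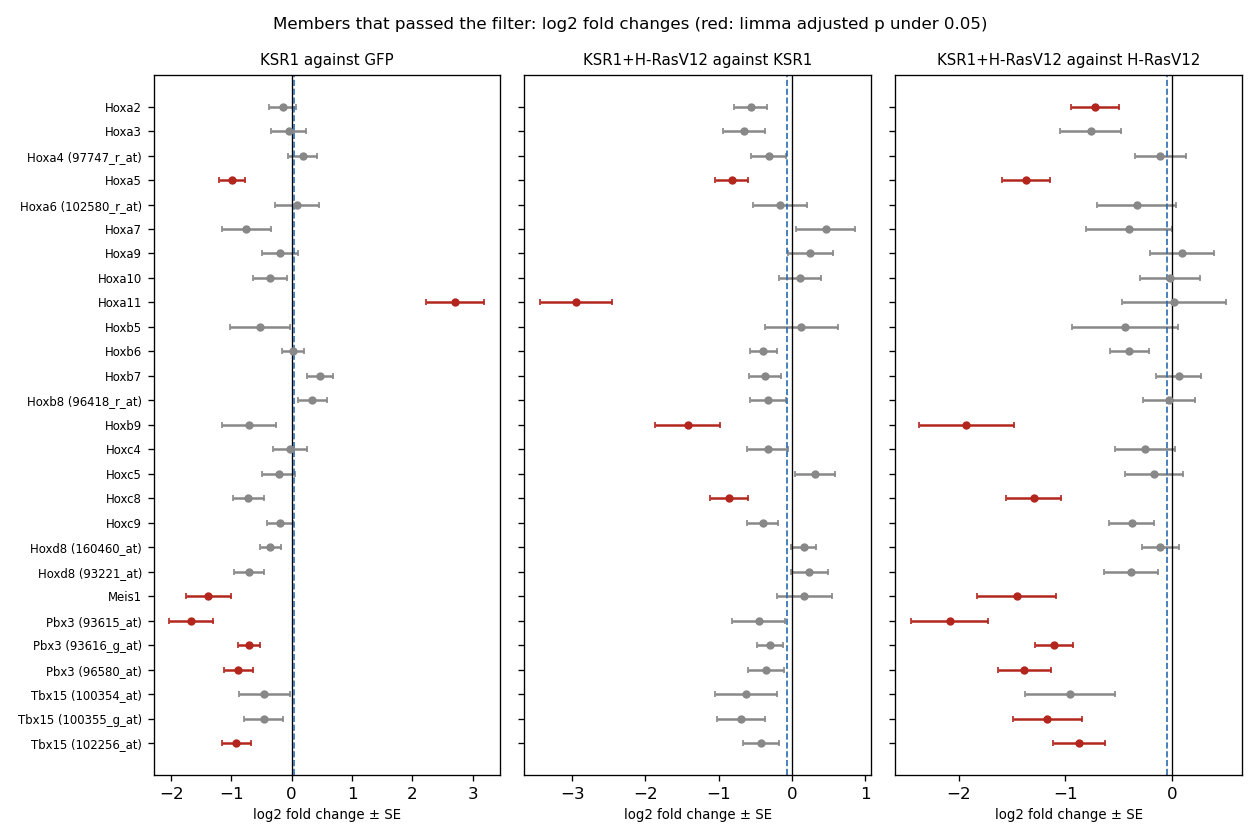
Log2 fold change ± SE (horizontal axis) of the 27 members that passed the filter (vertical axis) in 3 comparisons; red marks a limma adjusted p under 0.05 and the dashed line is the median of all 6891 probe sets. Hoxa11 is the one red point on the right in KSR1 against GFP, and in KSR1+H-RasV12 against H-RasV12 all 10 red points lie on the left.

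Whether lines with KSR1 differed from those without it alike with and without H-RasV12 was asked by the interaction. This is the difference of KSR1+H-RasV12 from H-RasV12 minus that of KSR1 from GFP. It called 0 members higher and 1 lower, where 4.16% of all tested probe sets were higher and 3.57% lower. The same member counts held at an unadjusted p under 0.05, where 1415 of all 6891 probe sets passed. Without a filter it was again 1 of 53, beside 1.59% of all. The member was Hoxa11, at -2.69 ± 0.69 (SE, adjusted p = 0.0275), a call lost with a pseudocount of 1 (adjusted p = 0.153), without H-RasV12 replicate 1 (0.0663) and without KSR1+H-RasV12 replicate 3 (0.0664), within a range of 0.00332 to 0.153 over all alternatives. Hoxa11 passed the filter through its 3 KSR1 arrays only, and without a filter its interaction had an adjusted p of 0.0119. For Hoxa5 the interaction was -0.38 ± 0.32 (SE, adjusted p = 0.564), for Hoxb9 -1.22 ± 0.63 (SE, adjusted p = 0.299) and for Hoxc8 -0.58 ± 0.37 (SE, adjusted p = 0.419). For the Pbx3 probe sets it was -0.42 ± 0.51 (SE, adjusted p = 0.722), -0.40 ± 0.25 (SE, adjusted p = 0.423) and -0.50 ± 0.35 (SE, adjusted p = 0.473), and for Meis1 -0.07 ± 0.52 (SE, adjusted p = 0.963). An interaction was thus detected for Hoxa11 alone among the tested members, which does not show that the others respond alike. This is 3.70% of them, near the 3.57% of all tested probe sets. Mean Ksr1 signal (92765_s_at) also differed, at 915 in the KSR1 line and 235 in KSR1+H-RasV12, and its part was not tested.

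As a whole, the member profiles of the GFP and H-RasV12 lines were closest. Their mean log2 signals differed by a median of 0.12 over the 53 members, and by 0.17 over all 12422 probe sets. Every other pair of lines differed by a median of 0.32 to 0.35 over the members, beside 0.23 to 0.28 over all probe sets. Over the 38 Hox probe sets alone the GFP and H-RasV12 lines differed by 0.11 and the other pairs by 0.20 to 0.31. Pearson correlations across the 53 members, which share arrays and probe brightness, were 0.98 for GFP with H-RasV12 and 0.88 to 0.92 for the other pairs. Across all 12422 probe sets they were 0.99 and 0.95 to 0.96.

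Genes that set up or read the same positional information were counted from lists chosen with earlier results of these data known. For H-RasV12 against GFP limma called 0 of their 54 tested probe sets, and 9 had an unadjusted p under 0.05 (7 higher, 2 lower). Over all 6891, 0.0726% were called and 411 had such a p. In KSR1 against GFP 4.98% of all were called higher and 6.82% lower, and 1714 had such a p. In KSR1+H-RasV12 the shares were 7.11% and 7.72% against H-RasV12 and 8.17% and 6.92% against KSR1. The lists were not tested as sets. Of 21 tested Polycomb and trithorax regulators, which hold Hox genes silent or active, 0 were called in KSR1 against GFP (3 at an unadjusted p under 0.05) and 3 were lower in KSR1+H-RasV12 against H-RasV12: Cbx2, a reader of the Polycomb mark (-1.32 ± 0.32 SE, adjusted p = 0.0115), Cbx6 of the same family (-1.04 ± 0.28 SE, adjusted p = 0.0187) and the Polycomb-associated Asxl1 (-0.83 ± 0.24 SE, adjusted p = 0.0269). Against KSR1, Cbx2 alone was lower, and the list medians of 0.09 and -0.19 in the first 2 of these comparisons stood beside 0.04 and -0.05 for all probe sets.

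Retinoic acid is a classic inducer of Hox genes. Of 9 tested genes of its signalling, 2 were lower in KSR1 against GFP, the retinal reductase Dhrs3 (-1.65 ± 0.50 SE, adjusted p = 0.0457) and the retinoid-induced repressor Bhlhe40 (-1.51 ± 0.31 SE, adjusted p = 0.00514). In KSR1+H-RasV12 against H-RasV12, 1 was higher, Bhlhe40 (2.07 ± 0.31 SE, adjusted p = 0.000364), and 2 were lower, the receptor Rarg (-1.55 ± 0.46 SE, adjusted p = 0.0332) and the binding protein Crabp1 (-3.15 ± 0.76 SE, adjusted p = 0.011). The list medians were 0.13 and -0.25, beside 0.04 and -0.05 over all probe sets.

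Other patterning factors differed in both directions in KSR1 against GFP, where 4.98% of all tested probe sets were called higher and 6.82% lower. Of 10 tested limb patterning genes, 2 were higher in KSR1 against GFP, the mesenchymal homeobox gene Prrx1 (1.43 ± 0.27 SE, adjusted p = 0.00297) and the BMP antagonist Grem1 (2.14 ± 0.42 SE, adjusted p = 0.00372), and 1 was lower, Prrx2 (-0.99 ± 0.23 SE, adjusted p = 0.00928). In KSR1+H-RasV12 against H-RasV12, 3 were lower: Prrx2 (-3.70 ± 0.23 SE, adjusted p = 2.62e-07), Prrx1 (-1.35 ± 0.27 SE, adjusted p = 0.00346) and the mesenchymal factor Twist1 (-1.10 ± 0.24 SE, adjusted p = 0.00538). The list medians were 0.27 and -0.18, beside 0.04 and -0.05 over all probe sets. In the latter comparison 7.11% of all were called higher and 7.72% lower. Of 10 tested head, neural crest and axial genes, with medians of -0.15 and -0.78 in the same comparisons, the forkhead gene Foxc2 (1.83 ± 0.26 SE, adjusted p = 0.000233) and Eya1 (0.62 ± 0.18 SE, adjusted p = 0.0392) were higher and its partner Six2 (-1.55 ± 0.38 SE, adjusted p = 0.0162) and the branchial arch gene Dlx2 (-1.02 ± 0.22 SE, adjusted p = 0.00728) lower in KSR1 against GFP. In KSR1+H-RasV12 against H-RasV12, 4 of these were lower: Gata6 (-1.86 ± 0.36 SE, adjusted p = 0.00269), Six2 (-1.84 ± 0.38 SE, adjusted p = 0.00396), Gata2 (-1.67 ± 0.22 SE, adjusted p = 0.00013) and Dlx2 (-1.17 ± 0.22 SE, adjusted p = 0.00205).

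Among TALE and T-box genes outside the members, 4 were tested, with medians of 0.51 in KSR1 against GFP and -0.59 in KSR1+H-RasV12 against KSR1. Tgif1, a TALE repressor, rose in KSR1 against GFP (0.76 ± 0.17 SE, adjusted p = 0.00867) and was lower again in KSR1+H-RasV12 against KSR1 (-0.93 ± 0.17 SE, adjusted p = 0.00168). Irx3, a TALE gene of the limb and neural tube, was lower in KSR1+H-RasV12 against KSR1 (-2.61 ± 0.26 SE, adjusted p = 1.24e-05) and against H-RasV12 (-1.63 ± 0.26 SE, adjusted p = 0.000502). Both had a negative interaction, -1.20 ± 0.24 (SE, adjusted p = 0.00732) for Tgif1 and -2.31 ± 0.36 (SE, adjusted p = 0.00142) for Irx3.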

How the data were processed

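Total RNA of 12 samples was labelled and hybridised to 1-colour Affymetrix mouse arrays, 1 per sample. The deposited values were probe set intensities that the authors computed with MAS5, per the submitters' processing notes, on a linear scale; their version and scaling target are not given in the sources used here. Genes were named from the platform annotation (10833 probe sets with 1 symbol, 396 with several, 1193 without; 66 control probe sets left out), and 10817 of the former were found in the GRCm38.p6 gene table. Signals were taken as log2(signal + 23), 23 being the 20th percentile of all values. A probe set was tested if above 182, the median, on at least 3 of 12 arrays. All 4 groups entered 1 fit in limma 3.58.1 (R 4.3.3) with an intensity trend, Benjamini-Hochberg adjustment and a threshold of 0.05, checked on simulated data. The number of arrays limits the precision. Alternatives changed the pseudocount, filter, normalization, trend, groups fitted and arrays. Whether replicate numbers pair the arrays was checked by correlating deviations from the group means. All 3 same-numbered pairs exceeded 0.1 for GFP with KSR1 (0.208 to 0.511) and KSR1 with KSR1+H-RasV12 (0.162 to 0.432). H-RasV12 with KSR1 did so too (0.121 to 0.363). For the other line pairs not all did. Over all lines 13 of 18 did, and an array's best match was its own number in 25 of 36 cases. Arrays may thus be paired by number in part, but the main fit held group means only. The number as a block was an alternative, with 8 member calls in place of 7 for KSR1 against GFP. Over all 6891 tested probe sets the calls went from 343 higher and 470 lower to 455 and 592. For KSR1+H-RasV12 against KSR1 both fits gave 4, while all calls went from 563 higher and 477 lower to 685 and 606. The labels name no shared batch. Members followed a rule on gene names, and both that rule and the lists were set with earlier results of these data known. Members expressed, mixed or called were named, the others by range; of other lists, up to 4 called genes per comparison with the largest change were eligible.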

Additional observations from a re-analysis of the deposited data

Results flagged for a closer look

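In the main fit an interaction was called for Hoxa11, whose difference between lines with and without KSR1 was unlike with and without H-RasV12. Hoxa11 passed the filter through its 3 KSR1 arrays only, so within the tested set it had to differ between lines. Fitted with no filter, its interaction had a limma adjusted p of 0.0119. The main call was lost in 3 alternatives. Mean Ksr1 signal (92765_s_at) was 915 in the KSR1 line and 235 in the KSR1+H-RasV12 line, and its part was not tested. The interaction was -2.69 on the log2 scale (limma adjusted p = 0.0275, 0.00332 to 0.153 over the alternatives): all 3 KSR1 arrays (273 to 373) lay above all 3 GFP arrays, and the KSR1+H-RasV12 arrays (7.17 to 46.6) overlapped the H-RasV12 arrays (9.50 to 41.3). With no filter and without replicate 1 of every group it was -2.14 (adjusted p = 0.0836), and with no filter and each KSR1 array left out in turn it ran from -2.76 to -2.55 (adjusted p 0.0178 to 0.0341).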

How the results depend on the processing

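Of 32 calls of a member in a comparison, 16 were kept in every alternative that tested them and 16 were lost in at least 1; none of the 680 alternative values changed sign, 571 stayed past the threshold and 109 did not. For KSR1+H-RasV12 against KSR1, 4 calls became 2 with a pseudocount of 100, no filter, a stricter filter, quantile normalization or median centring, and 1 with only the groups compared. The stricter filter asked for signals above 364 on at least 3 arrays. Hoxa11 exceeded 364 only on KSR1 replicate 2 (373) and Hoxb9 only on GFP replicate 1 (373). Both were therefore untested there rather than lost. The interaction had 0 calls with a pseudocount of 1, where Hoxa11 was tested, and 0 with the stricter filter, where it was not. Without replicate 1 of every group, whose arrays include the lowest 18S signals, the calls were 4 for KSR1 against GFP, 1 for KSR1+H-RasV12 against KSR1 and 0 for the interaction. Hoxa11 and Meis1 then passed the filter on too few arrays and were untested. Leaving out 1 array at a time gave 2 to 7 calls for KSR1 against GFP, 0 to 4 for KSR1+H-RasV12 against KSR1, 6 to 9 for KSR1+H-RasV12 against H-RasV12 and 0 to 1 for the interaction. Calls over all probe sets moved too. KSR1 against GFP had 204 higher and 277 lower without GFP replicate 3, in place of 343 and 470. KSR1+H-RasV12 against KSR1 had 449 and 331 without KSR1 replicate 1, in place of 563 and 477. Against H-RasV12 it had 359 and 355 without H-RasV12 replicate 1, in place of 490 and 532. Without any 1 KSR1 array Hoxa11 passed the filter on too few arrays; its fits with no filter and these arrays left out were added after seeing the data. With a threshold of 100, 27 members were expressed in GFP, 30 in H-RasV12, 26 in KSR1 and 19 in KSR1+H-RasV12, so that H-RasV12 then had more than GFP; at double the median, 8, 8, 4 and 3 were in the 4 lines in the order of the report. Shares of all probe sets at these thresholds are not given here. Other causes of these shifts were not tested. Some calls were gained: besides those the report names for Hoxd8, Hoxc8 and Tbx15, for KSR1+H-RasV12 against KSR1 those of Hoxa2 with no intensity trend (adjusted p = 0.0379) and of the Tbx15 probe set 100355_g_at without KSR1+H-RasV12 replicate 1 (0.0302), against H-RasV12 that of Hoxa3 with no intensity trend (0.0468), and against GFP that of the Tbx15 probe set 100354_at without KSR1 replicate 3 (0.0468). With the number as a replicate block, the calls were 0, 8, 4, 10, 11 and 1 in the order in which the report counts the comparisons, with the interaction last, and no call changed other than the 2 gained ones given for Hoxd8 and Tbx15. Calls over all probe sets rose under the block in every comparison, for KSR1 against GFP from 343 higher and 470 lower to 455 and 592.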
